A study of Mus musculus with 18 samples.

Results

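Kbtbd4, Dmwd, Cdk19, Crlf3, Il33 and Thbd are the 6 mouse genes described here, of 29112 genes with reads in these libraries and 15074 that were tested. They were chosen by an 8mer match to miR-200a-3p in the 3′ untranslated region (UTR) and by the largest measured increases in high glucose against vehicle, so that increase is a description and not a result. All 6 passed the filter on low counts. RNA was sequenced in 18 libraries from cells labelled HL-1, a cardiomyocyte line derived from a mouse atrial tumour. There were 3 libraries each of cells transfected with a miR-200a-3p inhibitor, with the negative control of the inhibitor, with miR-200a-3p mimics or with the negative control of the mimics, of cells in high glucose, and of cells given vehicle. All 4 transfected groups were also in high glucose, so only the vehicle cells were not, and transfected cells were harvested after 48 h. The sources used here give neither the glucose concentration and the time in it nor whether untransfected cells received transfection reagent. Separate cultures are not stated for the replicates, so p-values measure only the spread between samples that may be technical repeats.

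MicroRNAs pair through their seed, the bases near the 5′ end, with matching sites in the 3′ UTR of an mRNA, and such pairing usually lowers the level or translation of that mRNA. miR-200a-3p belongs to the miR-200 family, known for holding down Zeb1 and Zeb2 in epithelial cells. A mimic is a synthetic duplex that adds the microRNA, and an inhibitor is an antisense oligonucleotide that blocks it. The genes have unlike roles. Cdk19 encodes a kinase of the Mediator complex and is the paralog of Cdk8. Kbtbd4 encodes a substrate adaptor of cullin-3 ubiquitin ligases. Dmwd encodes a WD repeat protein that in human cells binds the deubiquitinases USP12 and USP46. Crlf3 encodes a cytokine receptor-like factor that in mice affects platelet lifespan. Il33 encodes a nuclear cytokine of the interleukin-1 family that is released from damaged cells and binds the receptor ST2, and in the heart fibroblasts are a known source. Thbd encodes thrombomodulin, a surface receptor of endothelial and other cells that turns thrombin towards activation of protein C.

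The sequence that links the genes is the seed of miR-200a-3p, shown with the family members that share it or differ in it. The mature sequences are RefSeq's, with table build GRCm38.p6, and capitals mark the seed, bases 2 to 8 counted from the 5′ end.
mmu-miR-200a-3p: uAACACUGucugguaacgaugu
mmu-miR-141-3p: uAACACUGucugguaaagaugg
mmu-miR-200b-3p: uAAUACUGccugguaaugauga
miR-141-3p has the same seed as miR-200a-3p, so no site found by seed separates them. miR-200b-3p differs within the seed by C4U, as do miR-200c-3p and miR-429-3p.

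The sites were searched on the sense strand of the canonical 3′ UTR in GRCm39 with the GENCODE M39 annotation. The 7-base seed match is CAGTGTT and the 8mer is CAGTGTTA, the match followed by A. Of 12906 tested genes with such a UTR, 685 (5.31%) held an 8mer. Each window below is 30 bases on the gene's own strand with the 8mer in capitals, shown because the site is what the genes have in common.
Cdk19: tttatggtaaaCAGTGTTAtggggaagcag
Kbtbd4: tcttaccagatCAGTGTTAaaaagaagcac
Dmwd: ctctgaaacatCAGTGTTAaccatatccct
Crlf3, first site: tctgtgacagcCAGTGTTAgcatcttttta
Crlf3, middle site: gaagaacacagCAGTGTTAgcaggtcacgt
Crlf3, last site: cgggctgtgtgCAGTGTTAtagtcagtgtg
Il33: attactacaatCAGTGTTAttgattaaaat
Thbd: tgcaggctctaCAGTGTTAttaatttttga
The Cdk19 8mer lies at chr10:40357863-40357870 on the plus strand, in exon 13 of 13. The Kbtbd4 8mer lies at chr2:90740501-90740508 on the plus strand, in exon 4 of 4. The Dmwd 8mer lies at chr7:18816478-18816485 on the plus strand, in exon 4 of 4. The Crlf3 sites lie on the minus strand in exon 8 of 8, at chr11:79937870-79937877, chr11:79937782-79937789 and chr11:79937711-79937718. The Il33 8mer lies at chr19:29938699-29938706 on the plus strand, in exon 8 of 8. The Thbd 8mer lies at chr2:148247310-148247317 on the minus strand, in the only exon of its canonical transcript.

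The genes differed among themselves in the site, which the choice did not use beyond its presence. Crlf3 carried 3 8mers, a number that only 3 of the 685 genes (0.438%), Crlf3 included, reached, and they began 430, 518 and 589 nt after the stop codon in a UTR of 988 nt. Il33 had a further 7-base match at 1557 nt besides its 8mer at 2258 nt, and Thbd had one at 835 nt besides its 8mer at 816 nt. The other 3 genes had 1 match each, at 280 nt in Kbtbd4, 230 nt in Dmwd and 2064 nt in Cdk19. None of the 6 UTRs held CAGTATT, the match of miR-200b-3p, miR-200c-3p and miR-429-3p, which 210 of the 685 genes (30.7%) did. The UTRs of Dmwd (458 nt), Kbtbd4 (684 nt), Crlf3 (988 nt) and Thbd (1747 nt) were shorter than the lower quartile of the 685 genes (1892 nt), Il33 (2492 nt) was below their median (2977 nt), and Cdk19 (4015 nt) was above it. A and U made up 80.0% of the Il33 window, a share that 10 of 680 scored windows (1.47%) reached, against a median of 60.0%. The windows of Thbd (66.7%), Kbtbd4 (63.3%), Dmwd and Cdk19 (60.0% each) were at or above that median, and those of Crlf3 held 60.0%, 50.0% and 46.7%. The 8mer was in 2 of 3 annotated coding transcripts of Cdk19, 9 of 12 of Kbtbd4, 10 of 10 of Dmwd, 5 of 6 of Crlf3, 8 of 9 of Il33 and 1 of 2 of Thbd.

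**Figure D1:**
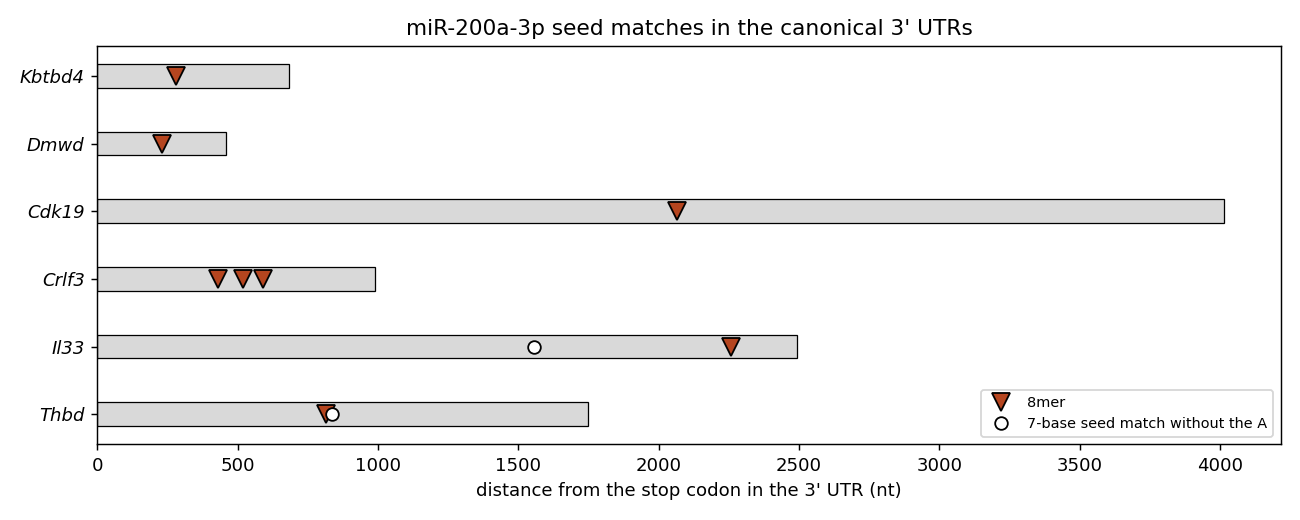
Position of seed matches of miR-200a-3p in the canonical 3′ UTR of each gene, with distance from the stop codon in nt on the x axis, bars for the UTRs, triangles for 8mers and circles for 7-base matches without the A. Crlf3 has 3 triangles within 988 nt, and the other genes have 1 each.

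Library totals were 33655916 to 37928790 reads, so 3 reads, the level that a count of 0 allows, were 0.0791 to 0.0954 CPM (TMM-scaled counts relative to library size); this covers counting error only. The atrial markers Nppa and Myl7 had at most 1 read in any group of 3 libraries, so the labelled cell type was not seen in these atrial genes. Of the other cardiomyocyte markers, Atp2a2 stood at 217 to 602 CPM, Tnnt2 at 15.6 to 76.2 CPM and Gata4 at 7.98 to 14.3 CPM. Nppb and Nkx2-5 reached at most 3.12 and 2.30 CPM, and Myh6, Actc1 and Ryr2 at most 0.197, 0.405 and 0.636 CPM. The 10 cardiomyocyte markers summed to 414 to 681 CPM in transfected and 269 to 320 CPM in untransfected libraries, mostly from Atp2a2. The summed level of 6 fibroblast markers was 2318 to 2444 CPM in inhibitor libraries, 2377 to 2485 in inhibitor control, 1066 to 1141 in mimic, 1168 to 1191 in mimic control, 10517 to 11956 in high glucose and 10006 to 10692 in vehicle libraries. Most of that sum came from Col3a1 and Col1a2. The summed level of 9 macrophage markers was 33.3 to 68.5 CPM except in mimic replicate 2, where it was 1127 CPM, with Lyz2 at 870 CPM. That library therefore stood apart, and the counts and calls that rest on it are also given without it. The summed level of 8 endothelial markers was 6.65 to 7.23 CPM in mimic and 6.46 to 7.18 CPM in mimic control libraries, and 1.48 to 2.13 CPM in the other 12 libraries, and 7 keratinocyte and epithelial markers summed to 18.7 to 54.8 CPM outside vehicle and 141 to 149 CPM in vehicle libraries.

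Cdk19, the Mediator kinase gene, was at 80.8, 81.0 and 85.2 CPM in inhibitor libraries, against 96.2, 84.2 and 81.8 CPM in inhibitor control libraries. It was at 50.6, 53.4 and 56.8 CPM in mimic libraries, against 44.2, 41.2 and 41.8 CPM in mimic control libraries. High glucose libraries held 74.9, 77.5 and 84.5 CPM, against 43.2, 41.8 and 37.6 CPM in vehicle libraries. The inhibitor pair thus overlapped high glucose, the mimic control overlapped vehicle, and the mimic lay between them without overlap. The order of mean levels was inhibitor control, inhibitor, high glucose, mimic, mimic control and vehicle, in which neighbours overlapped among the first 3 and between the last 2. High glucose exceeded vehicle by 0.95 ± 0.0670 (log2 fold change ± SE).

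Kbtbd4, the ubiquitin ligase adaptor, was at 15.9, 17.0 and 15.3 CPM in inhibitor libraries, against 16.8, 17.0 and 17.0 CPM in inhibitor control libraries. It was at 12.1, 11.6 and 11.4 CPM in mimic libraries, against 10.2, 10.6 and 9.37 CPM in mimic control libraries. High glucose libraries held 24.7, 21.2 and 22.6 CPM, against 9.82, 11.5 and 11.4 CPM in vehicle libraries. No transfected library reached the high glucose range. The inhibitor pair lay between high glucose and vehicle, and both the mimic and its control overlapped vehicle by CPM. By FPKM, a level scaled by length, the mimic control (2.67 to 3.02) lay below vehicle (3.11 to 3.79). The order of means was high glucose, inhibitor control, inhibitor, mimic, vehicle and mimic control, with overlap between the inhibitor control and the inhibitor and between neighbours among the last 3. High glucose exceeded vehicle by 1.07 ± 0.0717 (log2). Ptpmt1 overlaps Kbtbd4 by 6648 bp on the opposite strand, including the UTR with the site, and averaged 14.9 CPM in inhibitor, 14.5 in inhibitor control, 20.9 in mimic, 22.1 in mimic control, 13.3 in high glucose and 12.6 in vehicle libraries. The strand setting of the counting was not given in the sources used here, so the counts of Kbtbd4 and Ptpmt1 may hold reads of each other, although the libraries were stranded. Ndufs3 overlaps Kbtbd4 by a further 633 bp.

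Dmwd, the WD repeat gene, was at 14.7, 14.9 and 15.4 CPM in inhibitor libraries, against 16.0, 15.1 and 14.1 CPM in inhibitor control libraries. It was at 19.0, 16.3 and 17.4 CPM in mimic libraries, against 16.7, 16.1 and 17.9 CPM in mimic control libraries. High glucose libraries held 24.6, 26.0 and 25.9 CPM, against 13.3, 12.2 and 12.6 CPM in vehicle libraries. Dmwd was the only one of the 6 for which every transfected group lay between high glucose and vehicle without overlap, and all 4 were nearer vehicle. The mimic and its control, next below high glucose, overlapped each other, as did the inhibitor control and the inhibitor below them. High glucose exceeded vehicle by 1.01 ± 0.0655 (log2). Dmpk, the myotonic dystrophy kinase gene, begins 699 bp after Dmwd on the same strand, and its levels ran otherwise: 56.3 CPM in inhibitor, 53.6 in inhibitor control, 6.35 in mimic, 7.03 in mimic control, 113 in high glucose and 109 in vehicle libraries.

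Crlf3, the gene with 3 sites, was at 68.9, 69.9 and 65.0 CPM in inhibitor libraries, against 74.1, 67.4 and 68.9 CPM in inhibitor control libraries. It was at 76.0, 73.9 and 78.0 CPM in mimic libraries, against 67.7, 68.5 and 64.1 CPM in mimic control libraries. High glucose libraries held 60.1, 62.2 and 63.7 CPM, against 32.4, 33.6 and 31.9 CPM in vehicle libraries. By CPM, every transfected library lay above every high glucose library, with the mimic highest and vehicle far below the rest, and below the mimic the inhibitor control, the inhibitor and the mimic control followed with overlap between neighbours. On FPKM values, which are scaled by length, the mimic control was instead 0.06 below high glucose on the log2 scale. There the inhibitor (14.99 to 16.16) and the mimic control (13.47 to 14.29) overlapped high glucose (14.17 to 15.23). The inhibitor control and the mimic stayed above high glucose by FPKM. High glucose exceeded vehicle by 0.92 ± 0.0483 (log2). Suz12 overlaps Crlf3 by 26752 bp on the opposite strand, outside the UTR, and the counts of these genes may hold reads of each other in the same way.

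Il33, the nuclear cytokine gene, was at 10.9, 8.57 and 10.1 CPM in inhibitor libraries, against 8.24, 9.31 and 7.80 CPM in inhibitor control libraries. It was at 4.79, 3.99 and 4.17 CPM in mimic libraries, against 3.22, 3.24 and 2.63 CPM in mimic control libraries. High glucose libraries held 141, 144 and 160 CPM, against 74.1, 82.5 and 79.4 CPM in vehicle libraries. All 12 transfected libraries lay far below vehicle, and the mimic control was lowest, from 85 to 112 reads a library. Between neighbours in the order high glucose, vehicle, inhibitor, inhibitor control, mimic and mimic control, only the inhibitor and its control overlapped. Against high glucose, Il33 was 15.1-fold lower with the inhibitor, 17.6-fold lower with the inhibitor control, 34.4-fold lower with the mimic and 49.0-fold lower with the mimic control. Against vehicle, the same groups were 7.97-, 9.30-, 18.2- and 25.9-fold lower. High glucose exceeded vehicle by 0.92 ± 0.0732 (log2). By FPKM, Il33 had the highest level of the 6 genes in high glucose (51.7 ± 4.19) and vehicle libraries (27.6 ± 2.01) and the lowest in every transfected group, where Crlf3 was highest.

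Thbd, the thrombomodulin gene, was at 17.4, 21.3 and 20.0 CPM in inhibitor libraries, against 21.3, 21.2 and 22.2 CPM in inhibitor control libraries. It was at 13.2, 14.4 and 12.7 CPM in mimic libraries, against 11.7, 10.8 and 9.61 CPM in mimic control libraries. High glucose libraries held 76.8, 77.8 and 85.9 CPM, against 45.6, 44.1 and 43.4 CPM in vehicle libraries. As with Il33, every transfected library lay below every vehicle library, and only the inhibitor control and the inhibitor overlapped among neighbours in the order. Against high glucose, Thbd was 4.10-fold lower with the inhibitor, 3.72-fold lower with the inhibitor control, 5.97-fold lower with the mimic and 7.49-fold lower with the mimic control. High glucose exceeded vehicle by 0.85 ± 0.0695 (log2). The fibroblast marker sum given above was also lower in all 12 transfected libraries than in all 6 untransfected ones. Its part in the levels of Il33 and Thbd was not tested. In bulk RNA, fewer cells of a type and less RNA per cell cannot be told apart. Of the endothelial markers, Pecam1 stood at 0.0275 to 0.437 CPM and Cdh5 at 0 to 0.636 CPM in every group. Vwf, the von Willebrand factor gene, was at 5.15 to 5.56 CPM in mimic, 5.13 to 5.64 in mimic control, 0.523 to 0.831 in inhibitor, 0.433 to 0.785 in inhibitor control, 0.426 to 0.920 in high glucose and 0.312 to 0.682 in vehicle libraries. Vwf was thus highest in the mimic and mimic control groups, where Thbd was lowest, and its part in the level of Thbd was not tested. Egfl7 ran otherwise, at 0.487 to 0.737 CPM in untransfected and 0.193 to 0.542 CPM in transfected libraries. Of the remaining endothelial markers, Kdr was at 0.0271 to 0.492 CPM, Tek at 0.144 to 0.496 CPM, and Emcn and Esam at most at 0.0289 and 0.0875 CPM.

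**Figure D2:**
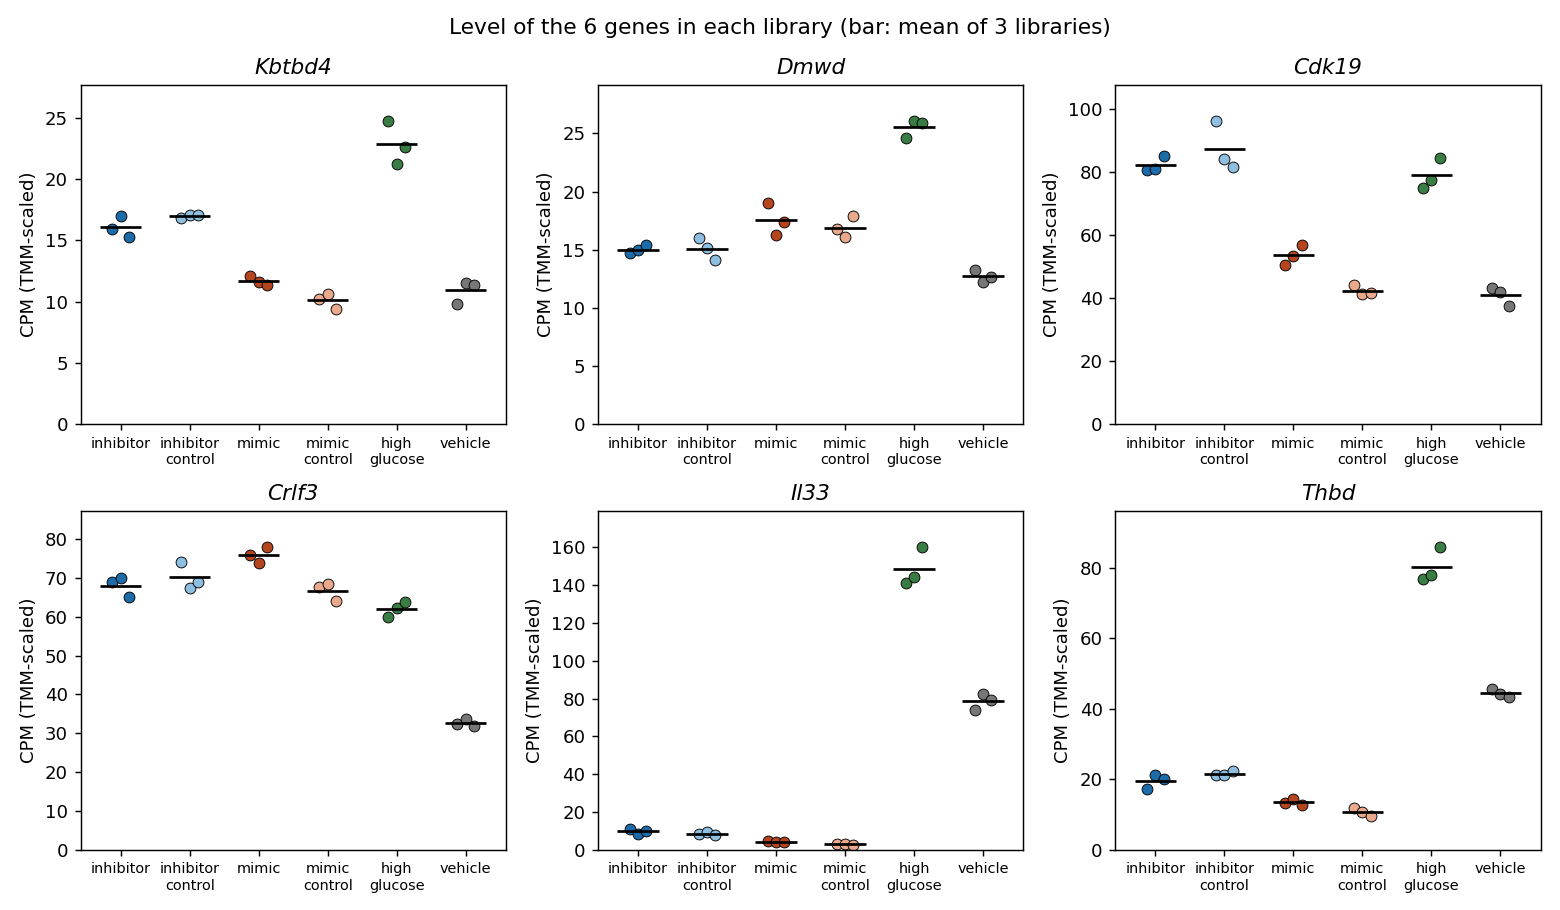
Level of each gene in every library, as TMM-scaled CPM on y axes that start at 0, with points for libraries and bars for the mean of 3 in each of the 6 groups. Il33 and Thbd sit lower in all transfected groups than in vehicle, while every transfected point of Crlf3 is above its high glucose points.

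No transfected group matched high glucose or vehicle across the 6 genes. By CPM, of the 24 pairs of a gene and a transfected group, 4 lay above high glucose, 2 overlapped high glucose, 7 lay between, 3 overlapped vehicle and 8 lay below vehicle. The 4 above were all Crlf3, and the 8 below were all Il33 and Thbd. By FPKM, Crlf3 with the inhibitor and with the mimic control overlapped high glucose instead, and Kbtbd4 with the mimic control lay below vehicle. The placements that follow also rest on CPM. On the log2 scale 16 pairs were nearer vehicle and 8 nearer high glucose. The share of all genes nearer vehicle was not computed, so the counts of nearness are descriptions only. The mimic and its control were each nearer vehicle for 5 of 6 genes, Crlf3 being the exception. The inhibitor and its control were each nearer vehicle for 3 genes, Dmwd, Il33 and Thbd. Transfected and untransfected libraries differed in most genes, so the counts are given beside the share over all genes. The 6 genes were chosen as higher in these high glucose libraries than in these vehicle libraries. That choice favours places below high glucose and above vehicle, so the share over all genes is not an even baseline. Against high glucose, the inhibitor libraries lay all below for 4 genes and all above for 1, where 40.4% and 41.4% of all genes tested did so. Against vehicle they lay all above for 4 and all below for 2, where 41.7% and 41.2% of all genes did. The inhibitor control gave the same counts, with backgrounds of 40% below and 40.7% above high glucose, and 41.4% above and 41% below vehicle. The mimic libraries lay below high glucose for 5 genes and above for 1 (38.9% and 39.9% of all genes), and above vehicle for 3 and below for 2 (40.4% and 39.6%). Without mimic replicate 2 the mimic kept its place against high glucose and vehicle for all 6 genes. The mimic control libraries lay below high glucose for 5 genes and above for 1 (40.6% and 39.8%), and above vehicle for 2 and below for 2 (40.2% and 40.8%). In high glucose against vehicle, the contrast that chose the genes, all 6 had no overlap, 16.3% of all genes tested lay above without overlap and 12% were called higher. The 4 transfected groups were set against the same high glucose and vehicle libraries, so these counts are not independent of each other.

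**Figure D3:**
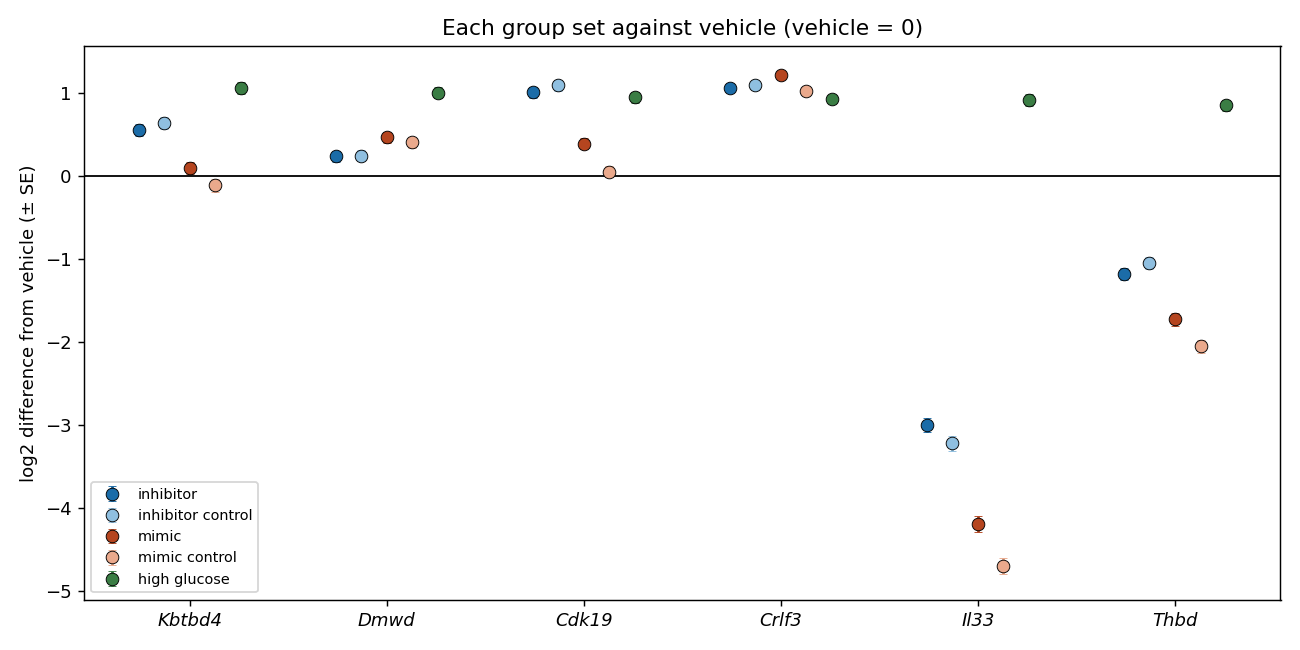
Difference of each group from vehicle in log2 units (points, with SE as bars) for each gene, with vehicle as the line at 0. High glucose is between 0.85 and 1.07 for all 6 genes, whereas the transfected groups are spread from 1.22 for Crlf3 with the mimic to -4.70 for Il33 with the mimic control.

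The members just inside the choice were Il33 at 0.92 and Thbd at 0.85 in high glucose against vehicle, and just outside were Atrnl1 at 0.81 ± 0.0631 and Etnk1 at 0.80 ± 0.0611 (log2). A level of at least 5 CPM in high glucose was added to recover the 6 genes from the files, and any level above 2.33 and up to 22.8 CPM, that of Kbtbd4, recovers the same genes. Below it 8 further genes with an 8mer ranked above Thbd, namely Cphx1, C1qtnf3, Esrrg, Mmp13, Mb, Fbxo47, Klf12 and Smad9, at 0.0281 to 2.33 CPM in high glucose.

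The comparisons among transfected groups set libraries against each other that the choice did not use. The filter, scaling and spread were shared over all 18 libraries, so the p-values are not wholly apart from the choice. With the inhibitor against its own control no change was called for the 6 genes (0 of 6 called, adjusted p = 1 for each by edgeR's quasi-likelihood test with Benjamini-Hochberg adjustment over 15074 genes). With 3 libraries in each group, the lack of a call does not show that a gene was unchanged. Its background was 0% of genes called, with 447 genes at an unadjusted p under 0.05, and DESeq2 called 0 with 281 at an unadjusted p under 0.05. The libraries overlapped for every gene, where 5.09% of all genes lay all above and 5.47% all below. Log2 fold changes were -0.09 ± 0.0650 for Cdk19, -0.08 ± 0.0707 for Kbtbd4, -0.01 ± 0.0664 for Dmwd, -0.05 ± 0.0466 for Crlf3, 0.22 ± 0.0957 for Il33 and -0.14 ± 0.0754 for Thbd. The largest in size was that of Il33, whose estimate was positive while the other 5 were negative.

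The mimic was higher than its control for 5 of the 6 genes, all but Dmwd, and lower for none. Among all genes tested 33.7% were called, 15.8% higher and 18% lower, and 20.7% lay all above their control libraries, as these 5 genes did. Cdk19 averaged 53.6 ± 3.12 CPM with the mimic, against 42.4 ± 1.61 CPM with its control (SD, n = 3 each), and rose by 0.34 ± 0.0678 (log2 ± SE; adjusted p = 0.000964, edgeR). Il33 averaged 4.32 ± 0.418 CPM, against 3.03 ± 0.349 CPM, the largest estimate of the 6 at 0.51 ± 0.128 (adjusted p = 0.00493, edgeR). Thbd rose by 0.33 ± 0.0826 (adjusted p = 0.00525, edgeR) and Crlf3, the gene with 3 sites, by 0.19 ± 0.0467 (adjusted p = 0.00494, edgeR). With the mimic, Il33 and Thbd were still 18.2-fold and 3.30-fold lower than in vehicle. Kbtbd4 rose by 0.21 ± 0.0754 (adjusted p = 0.0348, edgeR), a call that 9 of 28 alternatives ended, among them DESeq2 at an adjusted p of 0.0812 and the highest at 0.173 without mimic control replicate 3. Dmwd was at 0.06 ± 0.0657 (adjusted p = 0.556, edgeR). Without mimic replicate 2, the library with macrophage markers, the log2 changes were 0.33 for Cdk19, 0.21 for Kbtbd4, 0.10 for Dmwd, 0.20 for Crlf3, 0.55 for Il33 and 0.27 for Thbd. In that fit 4 of 6 genes were called by edgeR, at adjusted p of 0.00173, 0.00998, 0.00553 and 0.0311 for Cdk19, Crlf3, Il33 and Thbd, while Kbtbd4 was at 0.0798 and Dmwd at 0.344. Of all genes tested in it, 11.3% were higher and 14.9% lower. The fibroblast marker sum was slightly lower with the mimic (1066 to 1141 CPM) than with its control (1168 to 1191 CPM). Dcn and Pdgfra leaned the other way, with overlap. Dcn was at 24.1 to 25.7 CPM with the mimic, against 20.8 to 24.3 CPM with its control. Pdgfra was at 4.99 to 6.38 CPM, against 4.32 to 5.32 CPM. For the overlapping genes, Suz12 rose by 0.26 ± 0.0741 (adjusted p = 0.0119, edgeR) and Ptpmt1 was at -0.09 ± 0.0762 (adjusted p = 0.424, edgeR), and the part of shared reads in the values of Crlf3 and Kbtbd4 was not tested.

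The 6 genes came from a class that can be counted in the same comparisons. Of the 685 tested genes with an 8mer, 185 (27.0%) were higher with the mimic and 83 (12.1%) lower, with a median log2 change of 0.07. Among the 10036 genes with a UTR and no seed match, 14.9% were higher and 21.9% lower, with a median of -0.02, and over all genes tested the median was 0.00. Without mimic replicate 2, 146 of the 685 were higher and 65 lower, with a median of 0.07, where 11.3% of all genes tested were higher and 14.9% lower. Between the negative controls, where neither group received the mimic, the same class had 49.6% higher and 30.4% lower in the inhibitor control against the mimic control, with a median of 0.21. Genes with no seed match had 35.3% higher and 40.7% lower there, with a median of -0.04. The difference between classes was tested in neither comparison. The share of called genes that were higher with the mimic depended on the scale, at 46.7% of all called genes by edgeR with TMM, 38.9% by DESeq2, 41.1% with DESeq2 size factors in edgeR, 55.1% with upper quartile scaling and 61.3% by limma on log2(FPKM + 1).

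The negative controls differed from each other in most genes, and 5 of the 6 genes were among them. In the inhibitor control against the mimic control, 74.2% of all genes tested were called, 38.5% higher and 35.7% lower, and 40.6% lay all above and 37.5% all below without overlap. Of the 6 genes 4 were higher and 1 lower. Il33 averaged 8.45 ± 0.777 CPM in the inhibitor control, against 3.03 ± 0.349 CPM in the mimic control (SD, n = 3 each), a log2 difference of 1.48 ± 0.116 (adjusted p = 4.57e-10, edgeR). Cdk19 differed by 1.04 ± 0.0672 (adjusted p = 2.47e-11), Thbd by 1.01 ± 0.0800 (adjusted p = 5.73e-10) and Kbtbd4 by 0.75 ± 0.0737 (adjusted p = 1.45e-08), all by edgeR. For these 4 genes the inhibitor control libraries lay wholly above the mimic control libraries. Dmwd was lower by -0.16 ± 0.0663 (adjusted p = 0.0331, edgeR), a call that 7 of 28 alternatives ended, with upper quartile scaling giving -0.06 and an adjusted p of 0.430. Crlf3 was at 0.07 ± 0.0467 (adjusted p = 0.175, edgeR), but 5 alternatives called it higher, at 0.18 with upper quartile scaling (adjusted p = 0.00149). Upper quartile scaling moved the median of all genes by 0.11 in this comparison. The fibroblast marker sum was 2377 to 2485 CPM in the inhibitor control and 1168 to 1191 CPM in the mimic control. Among these markers only Dcn went the other way, at 13.9 to 15.7 CPM in the inhibitor control and 20.8 to 24.3 CPM in the mimic control. The part of the fibroblast markers in the differences between the controls was not tested.

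The effect of the mimic minus the effect of the inhibitor was positive for all 6 genes and passed the test for 3, where 13.2% of all genes tested were called, 4.63% higher and 8.59% lower. Thbd gave the largest difference, 0.47 ± 0.112 (log2 ± SE; adjusted p = 0.0104, edgeR), followed by Cdk19 at 0.42 ± 0.0939 (adjusted p = 0.00687, edgeR). Crlf3 gave 0.23 ± 0.0659 (adjusted p = 0.0262, edgeR), a call that 6 of 28 alternatives ended, at adjusted p up to 0.0881. Kbtbd4 gave 0.29 ± 0.103 (adjusted p = 0.0689, edgeR), which 2 alternatives called, at 0.0455 and 0.0201. Il33 gave 0.29 ± 0.160 (adjusted p = 0.245, edgeR) and Dmwd 0.06 ± 0.0934 (adjusted p = 0.696, edgeR). Without mimic replicate 2 the values were 0.41 for Thbd (adjusted p = 0.0248), 0.42 for Cdk19 (0.00765) and 0.24 for Crlf3 (0.0366), all by edgeR. Of all genes tested without that library, 3.66% were higher and 6.67% lower. The difference of effects is not separate evidence from the mimic and inhibitor comparisons, as it shares their libraries. The comparison of the controls shares a control with each of the mimic and inhibitor comparisons, so it is not separate evidence either.

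**Figure D4:**
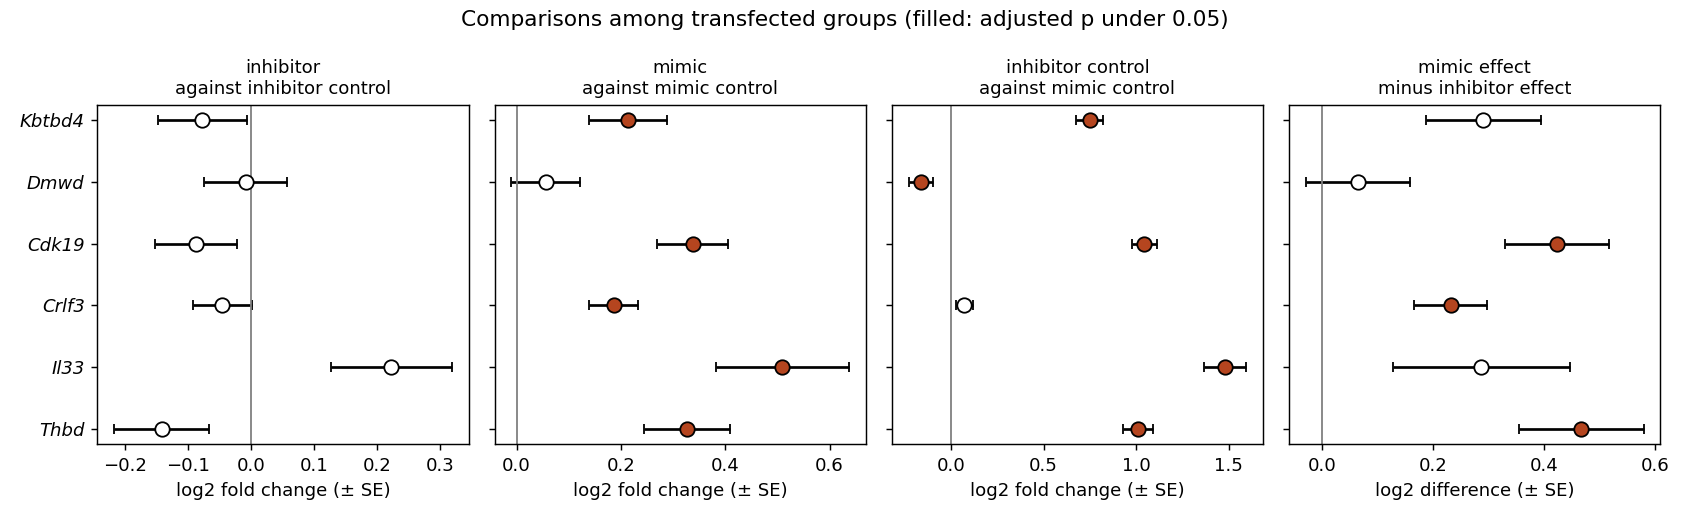
Log2 fold change with SE for each gene in the comparisons among transfected groups, with filled points for an adjusted p under 0.05. The inhibitor panel has no filled point, the mimic panel has 5 filled points above 0 and an open one for Dmwd, and the panel of the controls reaches 1.48 for Il33.

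The partners of each gene were taken from lists chosen with earlier results known, so their counts are descriptions. They are to be read against all genes tested, of which 15.8% were higher and 18% lower with the mimic, and 38.5% higher and 35.7% lower between the controls. Without mimic replicate 2 these shares were 11.3% and 14.9% with the mimic. No gene of these lists was called with the inhibitor. In the Mediator kinase module (Cdk8, Ccnc, Med12, Med12l, Med13 and Med13l) the mimic raised 0 of 6 and lowered 1, with a median log2 change of 0.17. The one lowered was Med12, the subunit that activates the kinase, at -0.33 ± 0.0525 (adjusted p = 0.000129, edgeR), and the same module had 4 higher and 1 lower between the controls. Med13, which links the module to core Mediator, was at 70.6 CPM in the inhibitor control, against 34.6 CPM in the mimic control, a log2 difference of 1.03 ± 0.0860 (adjusted p = 1.31e-09, edgeR), close in size to that of Cdk19. Cdk8 was at 0.12 ± 0.0517 with the mimic (adjusted p = 0.0843, edgeR), a gene outside the naming rule given here as the paralog of Cdk19. None of the 6 module genes held an 8mer. The module without mimic replicate 2 had 1 higher, Med12l (adjusted p = 0.0287, edgeR), and 1 lower with the mimic.

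Around Kbtbd4, the cullin-3 ligase and the CoREST corepressor, a degradation target of human KBTBD4 under a degrader compound, had 1 of 8 genes higher and 1 lower with the mimic, and 2 higher and 4 lower between the controls. Rcor3, a CoREST subunit, rose by 0.23 ± 0.0740 with the mimic (adjusted p = 0.0204, edgeR). Rbx1, the RING subunit of the ligase, fell by 0.14 ± 0.0440 on the log2 scale (adjusted p = 0.0220, edgeR), a call that was lost without mimic replicate 2 (adjusted p = 0.132, edgeR). Around Dmwd, the deubiquitinases Usp12, Usp46 and Usp1 with Wdr20, Wdr48 and the phosphatase gene Phlpp1 had 2 of 6 higher and none lower with the mimic, and 3 of these 6 UTRs held an 8mer. Usp1 rose by 0.34 ± 0.0642 (adjusted p = 0.000642, edgeR), and Phlpp1 was at -0.01 ± 0.0762 (adjusted p = 0.917, edgeR). Usp12, outside the naming rule and given as the other gene called higher, rose by 0.21 (adjusted p = 0.00634, edgeR).

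Around Il33, 10 of 11 listed genes of the interleukin-1 family and its receptors were tested, of which 4 were higher and 1 lower with the mimic, and 5 higher and 2 lower between the controls. Leaving out mimic replicate 2 gave 2 higher and 1 lower with the mimic, and Il1a and Irak4 were no longer called. Il1a, the interleukin-1 alpha gene, had 50 reads in mimic replicate 2, against 0 and 1 in the other mimic libraries, so that library alone carried its call. None of the tested genes held an 8mer. Il1r1, the interleukin-1 receptor, was at 18.7 CPM with the mimic, against 15.5 CPM with its control, and rose by 0.27 ± 0.0548 (adjusted p = 0.00113, edgeR). Its level in the other groups did not follow Il33, at 54.2 CPM in inhibitor, 50.9 in inhibitor control, 13.2 in high glucose and 15.2 in vehicle libraries. Il1rn, the receptor antagonist, was at 3.70 CPM in the inhibitor control, against 0.983 CPM in the mimic control, a log2 difference of 1.91 ± 0.204 (adjusted p = 4.97e-08, edgeR). Il1rl1, the gene of ST2, was at 0.0106 to 0.189 CPM on average in transfected groups, 1.58 CPM in high glucose libraries and 1.76 CPM in vehicle libraries; it is named as the receptor of Il33 and lies outside the naming rule.

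Around Thbd, 10 of 11 anticoagulant and fibrinolytic genes were tested, with 2 higher and 3 lower with the mimic and 4 higher and 3 lower between the controls. With mimic replicate 2 left out there were 0 higher and 3 lower with the mimic. Plau, the urokinase gene, fell by 0.31 ± 0.0453 on the log2 scale with the mimic (adjusted p = 6.05e-05, edgeR). Plaur, its receptor, averaged 325 CPM with the mimic, against 436 CPM with its control, and fell by 0.42 ± 0.109 (adjusted p = 0.00568, edgeR). Plaur was lowest in the untransfected groups, where Thbd was highest, at 81.5 CPM in high glucose libraries and 80.0 CPM in vehicle libraries. Around Crlf3, the 12 cytokine receptor and JAK-STAT genes had 2 higher and 3 lower with the mimic, and 4 higher and 8 lower between the controls. With mimic replicate 2 left out there were 2 higher and 2 lower with the mimic. Lifr, the receptor of leukaemia inhibitory factor, rose by 0.61 ± 0.0786 with the mimic (adjusted p = 1.99e-05, edgeR), and Stat3 fell by 0.27 ± 0.0552 (adjusted p = 0.00108, edgeR). Of 19 genes that overlap or adjoin the 6 genes, 8 were in the table and 5 were tested, with 1 higher and 1 lower with the mimic and 1 higher and 3 lower between the controls. Ndufs3 fell by 0.36 ± 0.0652 with the mimic (adjusted p = 0.000458, edgeR), while Kbtbd4, which it overlaps, rose. Dmpk differed by 2.93 ± 0.0664 between the controls (adjusted p = 1.03e-17, edgeR), while its neighbour Dmwd was lower.

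Likeness of profile was measured as the root mean square difference of log2 CPM over the 6 group means after centring, among 12977 genes, as a description. Crlf3 was most like Tmem245 (0.0729) and Ppp3r1 (0.102), and Kbtbd4 most like Asgr1 (0.0735) and Spin4 (0.129). Dmwd was most like Mapk14 (0.0862) and Atrnl1 (0.102), and Cdk19 most like Bbs10 (0.124) and Cbx3-ps7 (0.137). Thbd was most like Nrp1 (0.166) and Ahr (0.170), and Il33 most like Nr4a1 (0.154) and Cxcl5 (0.307). Of these 12 genes Spin4 and Atrnl1 held an 8mer. Among the 6 genes themselves the closest pair was Kbtbd4 and Cdk19 (0.215), and the farthest was Crlf3 and Il33 (2.35), so the 6 genes with one site in common followed unlike profiles over the groups.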

How the data were processed

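Cells of 6 groups were sequenced as stranded mRNA libraries with 150 nt paired reads, per the labels' protocols. Reads with over 2 N bases or under 16 nt were dropped and alignment to GRCm39 used HISAT2 with up to 4 mismatches, per the labels' protocols. The authors deposited raw counts per gene from uniquely mapped reads, and a separate table of FPKM values, which relate fragments to transcript length and library size. DESeq2 is named in the submitters' processing notes with no stated use. No counting program, annotation release or strand setting is given in the sources used here.

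For this work edgeR 4.0.16 (R 4.3.3) tested the counts after filterByExpr by group (minimum count 10, minimum total 15) and TMM scaling. Its quasi-likelihood fit had a mean for each of the 6 groups over the 18 libraries (12 residual degrees of freedom), and p-values were adjusted by Benjamini-Hochberg over 15074 genes and called under 0.05. Levels are CPM from the same scaling. High glucose against vehicle, and transfected groups against either, are described without a test because the genes were chosen on those libraries. The code was tested on simulated data. Replicates were not duplicates: a chi-square over genes gave 4.37 to 26.1 per degree of freedom between libraries of a group.

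Members, gene lists and marker lists were chosen with earlier results of these data known. The text names the 6 genes, per list up to 2 called genes with the smallest p, per gene the 2 closest profiles (0.1 CPM added before the log), and genes near the threshold of choice. Of the listed gene identifiers, 28849 (99.1%) matched GENCODE M39, all on the same chromosome, and the identifiers of the 6 genes differed from it only in version. Deviations of log2 CPM from the group mean correlated at -0.106 to 0.0908 across genes between same-numbered replicates of compared groups, so the numbers gave no sign of pairing. Alternatives were DESeq2 1.42.0, its size factors, upper quartile scaling, limma 3.58.1 on log2(FPKM + 1) or log2(FPKM + 0.1), other filters, a fit to the compared groups only, a replicate block, each library left out, and the longest UTR.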

Additional observations from a re-analysis of the deposited data

Results flagged for a closer look

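The effect of the mimic on its control and the effect of the inhibitor on its control differed for 3 of the 6 genes in the test of that difference (mimic effect minus inhibitor effect, log2, edgeR's quasi-likelihood test with Benjamini-Hochberg adjustment). Among all genes tested 13.2% were called in that difference, 4.63% higher and 8.59% lower. Thbd, the thrombomodulin gene, gave 0.47 ± 0.112 (adjusted p = 0.0104), from a mimic effect of 0.33 and an inhibitor effect of -0.14. Cdk19, the Mediator kinase gene, gave 0.42 ± 0.0939 (adjusted p = 0.00687), from 0.34 and -0.09. Crlf3, the gene with 3 sites, gave 0.23 ± 0.0659 (adjusted p = 0.0262), from 0.19 and -0.05, and this call was lost in 6 of 28 alternatives. In all 3 genes the 3 mimic libraries lay above the 3 mimic control libraries, while the inhibitor libraries overlapped their control. Of all genes tested, 20.7% lay all above with the mimic. With the inhibitor 5.09% lay all above and 5.47% all below their control libraries. The 2 effects were measured against different negative controls, which themselves differed by 1.01 for Thbd, 1.04 for Cdk19 and 0.07 for Crlf3 (log2, inhibitor control against mimic control), and the part of that distance in the result was not tested.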

How the results depend on the processing

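Across 28 alternatives for each of 24 tested values, 639 of 672 kept direction and side of the threshold, 22 lost the call, 7 gained it and 4 reversed. The calls of Cdk19, Il33 and Thbd with the mimic, of Cdk19, Kbtbd4, Il33 and Thbd between the controls, and of Cdk19 and Thbd in the difference of effects held in all 28. Leaving out a library outside the comparison could act only through the shared filter, scaling and spread, so such alternatives were weaker checks. The reversals were all of Dmwd, which was near 0: leaving out 1 library gave -0.052 to 0.035 with the inhibitor, -0.018 to 0.099 with the mimic and -0.0086 to 0.11 in the difference. Of 1512 described values 7 reversed: Crlf3 in the mimic control against high glucose was -0.060 on log2(FPKM + 0.1) and -0.056 on log2(FPKM + 1) with or without a filter, and Cdk19 in the mimic control against vehicle was -0.12 on log2(FPKM + 0.1), -0.10 on log2(FPKM + 1) with or without a filter, and -0.0024 to 0.10 when 1 library was left out, lowest without vehicle replicate 3; the cause was not tested. Genes called with the inhibitor numbered 0 in the main fit, 18 by limma on log2(FPKM + 1) with no filter, 26 with no filter and 1 with only the groups compared. Genes called in the difference of effects numbered 1993, against 1082 by limma on log2(FPKM + 1) with no filter and 1244 to 2297 when 1 library was left out, with 1304 without inhibitor control replicate 2, 1244 without inhibitor control replicate 3 and 1286 without mimic control replicate 1. The share of called genes that were higher was 35% in that difference, against 47.2% with upper quartile scaling, 46.7% with no filter, and 53.1%, 49.5% and 45.9% on FPKM; with the mimic it was 46.7%, against 63.5%, 61.3% and 60.0% on FPKM, 55.1% with upper quartile scaling and 38.9% by DESeq2; and between the controls it was 51.8%, against 62.3% by limma with no filter. Same-numbered libraries did not deviate together, and a replicate block gave 4883 called genes with the mimic, 11146 between the controls, 1816 in the difference and 0 with the inhibitor, with no change in the calls of the 6 genes. With the longest UTR, 778 genes held an 8mer, of which 309 were called with the mimic, against 268 of 685. Without mimic replicate 2, an alternative chosen after seeing the data for the counts of lists, genes called with the mimic numbered 2 in place of 1 in the Mediator kinase module, 1 in place of 2 around Kbtbd4, 3 in place of 5 around Il33 and 3 in place of 5 around Thbd, while the other lists and the 8mer class (211 in place of 268) stayed within 1.5 times. The lowest count of any of the 6 genes was 85 reads, for Il33 in a mimic control library. Il33 had 137 to 168 reads in mimic and 85 to 112 in mimic control libraries. Its SE of 0.128 was the largest of the 6 genes in that comparison, and the part of depth in it was not tested.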
